A study of Xiphophorus maculatus with 32 samples.

Results

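Skin of the platyfish *X. maculatus* exposed to light of 510 to 520 nm, in the green part of the visible spectrum, was compared with skin of unexposed fish. The comparison rests on 4 libraries among the 28 distinct libraries of the series, 2 from fish exposed to 510–520 nm and 2 from the control fish of the 10 nm waveband experiment. These 4 were chosen by their labels alone. All fish were mature males of the inbred line Jp 163 B, from the 105th generation of sibling matings and 10 to 11 months old. The exposed fish were kept in the dark for 14 h, then received light on both sides from a xenon lamp through a monochromator, and skin was taken after a further 6 h in the dark. Control fish received no light. The methods describe controls in one place as kept like the exposed fish and in another as taken from the dark without handling, so light and handling cannot be told apart here. The labels give the fish within a group the numbers 1 and 2, and fish 1 and fish 2 below are those numbers. RNA-Seq counts are given for each Ensembl transcript, and levels are given as CPM, the count of a transcript scaled to the size of its library with edgeR's TMM factors. As the skin was not sorted into cells, fewer cells of a type and less RNA per cell cannot be told apart in any value below.

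In fishes, many cells of peripheral tissues respond to light directly, and in zebrafish light can set the clock within such cells. Cryptochromes and BHLHE40 are parts of that clock. Skin also holds a general stress response, in which heme oxygenase and chaperones of the heat shock families take part, and growth factor pathways that run through insulin receptor substrates, MAP kinases, phospholipase C, calcium and protein kinase C (PKC).

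Few transcripts can be discussed by gene. Of 20218 transcripts in the counts, 88 could be paired with a gene name, 63 of them through identifiers of the NanoString panel and 25 through rows that are named coding sequences. Of these, 81 were abundant enough to be tested. The panel holds genes that the same laboratory had picked as light responsive in earlier work, so its genes are not a random sample of transcripts. None of the markers listed for keratinocytes, fibroblasts, pigment cells, red blood cells and immune cells has a named transcript, so the tissue label could not be checked by them. Of the listed muscle markers MYL2B, a myosin light chain, is named. It stood at 94.7 and 57.4 CPM in the controls and at 58.7 and 100 CPM in the exposed fish, with overlapping groups.

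The 2 exposed fish departed from the controls to very different extents. Relative to the mean of the controls, 4554 of 16366 transcripts tested (27.8%) lay at least 2-fold away in fish 1 and 820 (5.01%) in fish 2. In both fish and in the same direction, 207 transcripts were at least 2-fold higher (1.26% of those tested) and 282 were at least 2-fold lower (1.72%). These 489 transcripts make up 10.7% of those at least 2-fold away in fish 1 and 59.6% of those in fish 2. Fish 1 alone showed 1838 higher (11.2%) and 2185 lower (13.4%). Fish 2 alone showed 140 higher (0.855%) and 149 lower (0.91%), and 42 transcripts went at least 2-fold in opposite directions in the 2 fish. The classes are descriptions of 4 libraries and carry no test. A prior count of 2 was used for the log2 level of each fish.

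**Figure D1:**
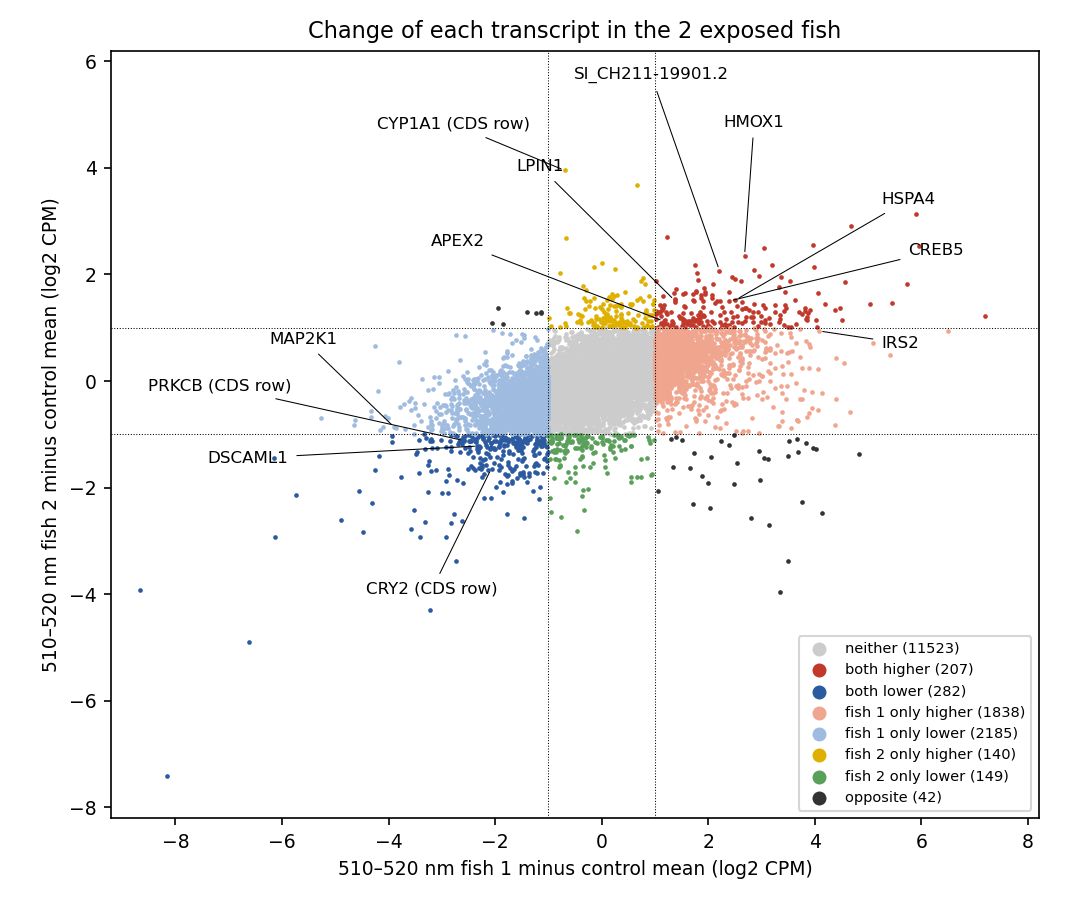
Each point is 1 of 16366 transcripts, placed by its log2 CPM in fish 1 (horizontal axis) and in fish 2 (vertical axis) minus the mean log2 CPM of the 2 controls. Dotted lines mark a 2-fold difference, colours mark the classes with their numbers, and the cloud is drawn out along the axis of fish 1, where 4554 transcripts lie past the lines against 820 along the axis of fish 2.

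The most abundant transcripts were lower in fish 1 than in the other 3 libraries. The leading transcript of these 4 libraries had 51333 and 44868 CPM in the controls, 17570 CPM in fish 1 and 39161 CPM in fish 2. The second had 23327 and 21438 CPM in the controls, 7460 CPM in fish 1 and 18728 CPM in fish 2. Together the pair took 2.25% of the counts of fish 1, 5.53% of those of fish 2, and 6.64% and 7.36% in the controls. Fish 1 of 520–530 nm was like it, with 16534 and 6244 CPM of these transcripts and a share of 2.30%, while the other 8 exposed libraries, fish 2 of 510–520 nm among them, had shares of 4.48% to 5.59%. The part of this difference in the results was not tested. The libraries of fish 1 and fish 2 held 15300058 and 14415283 counts, those of the controls 15555908 and 30502623, and the 12 libraries of the experiment ranged from 12835091 to 30502623. The 2 exposed fish were at least 2-fold apart at 3169 transcripts (19.4%), the 2 controls at 347 (2.12%).

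No transcript passed the quasi-likelihood test of 510–520 nm against the controls in the joint fit. In this fit of the 12 libraries with edgeR, 0 of 16366 transcripts (0%) were higher and 0 (0%) were lower at an adjusted p under 0.05 and a 2-fold change. The lowest adjusted p was 0.0899, and 4705 transcripts had an unadjusted p under 0.05, of which 2651 were higher and 2054 lower. On the 2 groups alone, edgeR's exact test gave 222 transcripts (110 higher, 112 lower). DESeq2 on the 12 libraries called 1023 (679 higher, 344 lower). The outcome turned on the fish: without fish 2 the quasi-likelihood test called 3616 transcripts, 1765 higher and 1851 lower, with the spread of the lone fish assumed to be that of the other groups, and without fish 1 it called 0. For a single transcript the smallest two-sided p that an exact permutation test of 2 against 2 fish can give is 0.333. Both exposed fish lay above both controls at 4733 transcripts (28.9%) and below both at 4836 (29.5%).

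Among the transcripts at least 2-fold higher in both fish, fish 1 had the larger difference in most cases. The median log2 change was 2.06 in fish 1 (from 1.02 to 7.19) and 1.25 in fish 2 (from 1.0 to 3.13). For those lower in both, the medians were -1.93 in fish 1 (from -1.01 to -8.66) and -1.26 in fish 2 (from -1.0 to -7.41). In 399 of the 489, fish 1 was farther from the controls than fish 2. The threshold cuts through a continuous range. The smaller of both changes was 1.0009 for the transcript just inside it among the higher ones and 0.9934 for the one just outside, and -1.0008 and -0.9998 among the lower ones. Both fish lay beyond both controls in 204 of the 207 and in all 282, against 28.9% and 29.5% of all transcripts, which the choice of these transcripts largely sets.

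Of the 81 named transcripts, 6 were at least 2-fold higher in both fish and 3 at least 2-fold lower, against 207 and 282 of 16366 tested. The 6 include 2 of the 4 members of the heat shock and oxidative stress list, HMOX1 and HSPA4. Among stress-related coding sequence rows outside that list, HSP90AB1, GPX6 and GSTM3 stayed within 2-fold in both fish. OXR1, also outside it, was at least 2-fold lower in fish 1 alone.

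HMOX1 (ENSXMAT00000004591), heme oxygenase, breaks down heme and is a general marker of oxidative stress. It had 9.00 and 9.17 CPM in the controls, 59.0 CPM in fish 1 and 46.9 CPM in fish 2. Both exposed fish thus stood well apart from both controls, which were almost equal. The log2 fold change was 2.54 ± 0.72 (SE, here and below), and the adjusted p in the quasi-likelihood test was 0.0979.

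HSPA4 (ENSXMAT00000001625) encodes a chaperone that serves as a nucleotide exchange factor of HSP70. Its level was 15.1 and 14.6 CPM in the controls, 84.9 CPM in fish 1 and 42.7 CPM in fish 2, so the groups did not overlap and fish 1 was the highest. The log2 fold change was 2.10 ± 0.43 (SE, adjusted p 0.0899). In the controls of the 50 nm waveband experiment, scaled within that experiment, HSPA4 stood at 35.8 and 40.3 CPM, close to fish 2. With these controls added to the reference the log2 fold change was 1.33 ± 0.44 (SE). The other members of the stress list differed. HSP90AA1, a cytosolic chaperone, had 26.6 and 22.5 CPM in the controls, 11.9 CPM in fish 1 and 27.8 CPM in fish 2. NOS2, the inducible nitric oxide synthase, was low in all 4 libraries, at 0.848 and 1.11 CPM in the controls and 0.726 and 0.290 CPM in the exposed fish.

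CREB5 (ENSXMAT00000001067), a transcription factor that binds cyclic AMP response elements, had 1.56 and 1.70 CPM in the controls, 9.08 CPM in fish 1 and 4.86 CPM in fish 2. Its log2 fold change was 2.08 ± 0.50 (SE, adjusted p 0.0906). LPIN1 (ENSXMAT00000004686), lipin, a phosphatidate phosphatase of triglyceride synthesis, had 15.8 and 21.4 CPM in the controls. In fish 1 it had 47.6 CPM and in fish 2 52.7 CPM. Of the 6 named transcripts higher in both fish, LPIN1 was the one that stood higher in fish 2 than in fish 1. Its log2 fold change was 1.43 ± 0.33 (SE, adjusted p 0.0899).

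APEX2 (ENSXMAT00000009048), an endonuclease that acts at abasic sites in DNA repair, was sparse, with 10 and 30 counts in the controls and 27 and 26 in the exposed fish. Scaled, these are 0.652 and 0.983 against 1.96 and 1.89 CPM. Both exposed fish lay above both 10 nm controls, with a log2 fold change of 1.19 ± 0.40 (SE, adjusted p 0.116). In the 50 nm controls, scaled within that experiment, APEX2 stood at 1.84 and 1.89 CPM, near the exposed fish. With these controls added to the reference the log2 fold change was 0.56 ± 0.42 (SE). The higher APEX2 values are thus relative to the 10 nm controls.

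The remaining member of the 6 is a transcript that the panel lists among its housekeepers, SI_CH211-19901.2 (ENSXMAT00000020266). It had 3.06 and 2.36 CPM in the controls, 12.9 CPM in fish 1 and 11.7 CPM in fish 2. The 2 exposed fish were close to each other and far from the controls, and its unadjusted p of 7.67e-06 and standard error of 0.25 around a log2 fold change of 2.19 were small. After adjustment over all transcripts the p was 0.0899. In the fish of the other 10 nm wavebands, which share these controls, it ranged from 7.21 to 19.3 CPM. The 540–550 nm fish, at 14.4 and 19.3 CPM, were above both 510–520 nm fish. The rows of the panel were read from page images, so the pairing of all panel names with their identifiers, this one included, is less sure than the values.

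**Figure D2:**
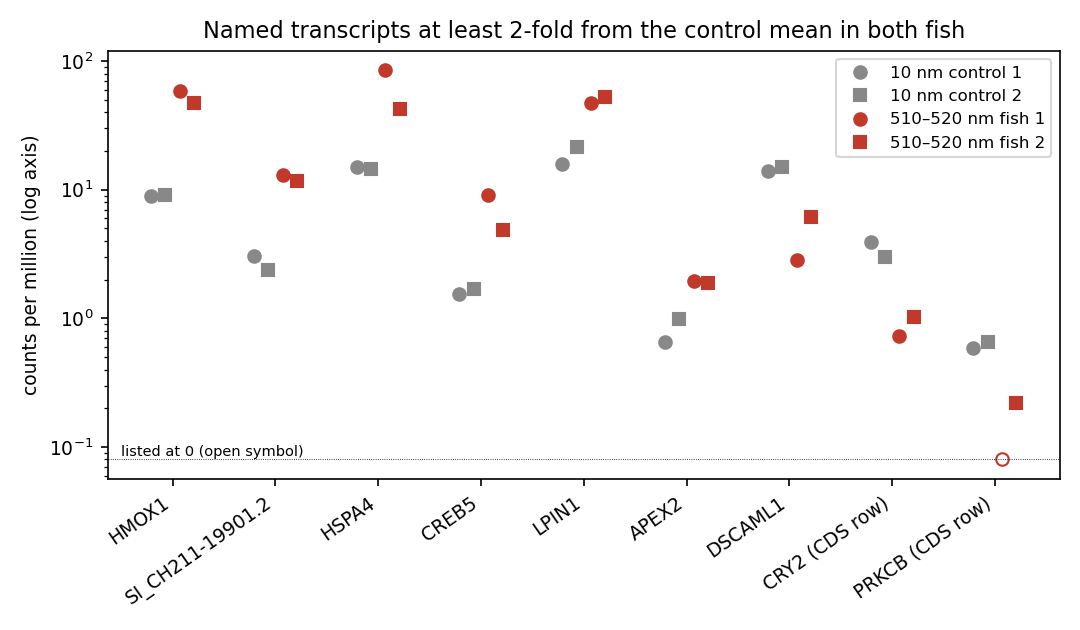
CPM on a log axis of the 9 named transcripts at least 2-fold from the control mean in both fish, ordered by log2 fold change, with grey symbols for the 2 controls and red symbols for the 2 exposed fish (circle 1, square 2). All 9 have both red symbols on 1 side of both grey symbols, and the 2 red symbols are closest for SI_CH211-19901.2 (12.9 and 11.7 CPM), APEX2 (1.96 and 1.89 CPM) and LPIN1 (47.6 and 52.7 CPM).

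On the lower side, DSCAML1 (ENSXMAT00000004084), an immunoglobulin type cell adhesion molecule of the nervous system, had 13.9 and 15.1 CPM in the controls, 2.83 CPM in fish 1 and 6.17 CPM in fish 2. Its log2 fold change was -1.69 ± 0.36 (SE, adjusted p 0.0899). CRY2, a cryptochrome given as a named coding sequence, had 60 and 92 counts in the controls and 10 and 14 in the exposed fish. Scaled, these are 3.91 and 3.01 CPM against 0.726 and 1.02 CPM, without overlap. The log2 fold change was -1.97 ± 0.55 (SE, adjusted p 0.0977). In the 2 controls of the 50 nm experiment, scaled within that experiment, CRY2 stood at 0.395 and 0.756 CPM, below all 4 of these libraries except that 0.756 CPM exceeds the 0.726 CPM of fish 1. The lower CRY2 values are thus relative to the 10 nm controls. Near-identical cryptochrome transcripts may share reads, and how reads that fit several transcripts were treated is not given in the sources used here.

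PRKCB, a PKC isoform, appears as a named coding sequence and as a panel transcript (ENSXMAT00000005357). The coding sequence row had 9 and 20 counts in the controls, 0 in fish 1 and 3 in fish 2, too few for a fold change. The panel transcript had 34.5 and 33.1 CPM in the controls, 4.14 CPM in fish 1 and 18.2 CPM in fish 2. In the 50 nm controls, scaled within that experiment, the panel transcript stood at 17.2 and 21.4 CPM, on either side of fish 2. As both rows of PRKCB may draw on the same reads, they are not separate observations.

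Larger differences were found among transcripts without a name. Where the mean level reached 10 CPM and both fish lay beyond both controls, 98 unnamed transcripts were at least 2-fold higher and 76 at least 2-fold lower in both fish. ENSXMAT00000018048 had 479 and 3163 CPM in the controls and 4.21 and 7.11 CPM in the exposed fish. The controls themselves were far apart, yet both were far above both exposed fish. Its log2 fold change was -8.33 ± 1.92 (SE, adjusted p 0.0899). In the 50 nm controls, scaled within that experiment, it had 44.3 and 38.6 CPM. These values are above both exposed fish but far below both 10 nm controls, so the size of this change rests on the 10 nm controls.

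ENSXMAT00000017917 had 312 and 858 CPM in the controls and 5.16 and 17.3 CPM in the exposed fish, a log2 fold change of -5.70 ± 1.58 (SE, adjusted p 0.0977). On the higher side, ENSXMAT00000000069 had 2.22 and 4.29 CPM in the controls, 191 CPM in fish 1 and 28.0 CPM in fish 2. Its log2 fold change was 5.03 ± 0.94 (SE, adjusted p 0.0899). ENSXMAT00000015492 had 6.39 and 23.8 CPM in the controls, 320 CPM in fish 1 and 92.9 CPM in fish 2, with a log2 fold change of 3.75 ± 1.11 (SE, adjusted p 0.101). In the 50 nm controls, scaled within that experiment, this last transcript had 118 and 169 CPM, above fish 2, so its place here rests on the 10 nm controls. In both of the higher transcripts fish 1 was several times above fish 2.

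Most differences of at least 2-fold were reached in fish 1 alone. Of the 81 named transcripts, 12 were at least 2-fold higher and 24 at least 2-fold lower in fish 1 but not in fish 2, or 14.8% and 29.6%, beside 11.2% and 13.4% of all transcripts tested. Among all tested, the median log2 change of those higher in fish 1 alone was 1.41 in fish 1 and 0.42 in fish 2, and of those lower -1.40 and -0.38. At least a 4-fold difference was seen for 353 and 361 of them in fish 1. Fish 2 had the sign of fish 1 in 1572 of the 1838 higher ones (85.5%). For the 2185 lower ones this held in 1857 (85%). Both fish are measured from the same controls, which in part sets these shares.

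Of the 10 transcripts of the G protein, phospholipase C, calcium and PKC list 7 were in these classes (2 higher and 5 lower), and of the 6 of the insulin, MAPK and metabolic list 3 (2 higher and 1 lower). IRS2 (ENSXMAT00000012579), an adaptor of the insulin receptor, had 7.76 and 13.4 CPM in the controls, 173 CPM in fish 1 and 19.7 CPM in fish 2. Both exposed fish were above both 10 nm controls, but the log2 change was 4.07 in fish 1 and 0.94 in fish 2. In the 50 nm controls, scaled within that experiment, IRS2 stood at 20.8 and 22.9 CPM, above fish 2. The higher value of fish 2 is thus relative to the 10 nm controls. The test gave a log2 fold change of 3.17 ± 1.17 (SE, adjusted p 0.128).

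MAP2K1 (ENSXMAT00000003526), the kinase that activates ERK, went the other way. It had 34.8 and 31.1 CPM in the controls, 2.11 CPM in fish 1 and 18.0 CPM in fish 2, or log2 changes of -3.89 and -0.87. Again both exposed fish lay on 1 side of the controls, with a log2 fold change of -1.71 ± 0.84 (SE, adjusted p 0.207).

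PRKCA (ENSXMAT00000006647), another PKC isoform, had 39.1 and 36.4 CPM in the controls, 7.41 CPM in fish 1 and 21.6 CPM in fish 2. ITPR3 (ENSXMAT00000013492), an inositol trisphosphate receptor that releases calcium from the endoplasmic reticulum, had 148 and 136 CPM in the controls, 35.6 CPM in fish 1 and 103 CPM in fish 2. PLCH2 (ENSXMAT00000001996), a phospholipase C, had 28.2 and 18.6 CPM in the controls, 5.96 CPM in fish 1 and 17.2 CPM in fish 2. In all 3 the exposed fish were below both controls, fish 2 by less than 2-fold. GNA15 (ENSXMAT00000013490), a G protein alpha subunit of the class that activates phospholipase C, was in contrast higher, at 7.63 and 6.0 CPM in the controls, 61.5 CPM in fish 1 and 8.56 CPM in fish 2. In the 50 nm controls, scaled within that experiment, PLCH2 stood at 11.7 and 16.5 CPM, below fish 2. The lower value of fish 2 in PLCH2 is thus relative to the 10 nm controls. PRKCA (22.8 and 33.1 CPM) and ITPR3 (107 and 112 CPM) stood above fish 2 there, and GNA15 (8.42 and 5.5 CPM) below it.

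In the G protein, phospholipase C, calcium and PKC list as a whole, with 10 transcripts tested for 9 genes, 1 was higher and 1 lower in both fish, 2 were higher and 5 lower in fish 1 alone, and 1 stayed within 2-fold in both. The 1 lower in both fish is the sparse coding sequence row of PRKCB. That gene enters these counts and the median by both of its rows. Exposed fish were above both controls for 2 and below both for 6, against 28.9% and 29.5% of all transcripts. The median log2 fold change was -1.02, beside 0.01 over all transcripts, and 0 of the 10 passed the test.

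Transcripts of the epidermis and dermis showed the same inequality of the 2 fish. TGM8 (ENSXMAT00000009163), a transglutaminase, an enzyme family that cross-links proteins, had 13.7 and 14.8 CPM in the controls, 213 CPM in fish 1 and 23.0 CPM in fish 2. FOXN1 (ENSXMAT00000011812), which in mouse directs keratinocyte differentiation and thymus development, had 10.1 and 13.3 CPM in the controls, 0.726 CPM in fish 1 and 8.27 CPM in fish 2. WNT5A (ENSXMAT00000002625), a ligand of noncanonical Wnt signalling, had 56.9 and 42.1 CPM in the controls, 9.88 CPM in fish 1 and 42.4 CPM in fish 2. For WNT5A fish 2 fell between the controls, so the difference was carried by fish 1. In this list of 4, 1 was higher and 3 lower in fish 1 alone, with a median log2 fold change of -1.06 and 0 past the test. SYBU (ENSXMAT00000007109), syntabulin, which links vesicles to kinesin motors, had 0.978 and 1.77 CPM in the controls, 12.8 CPM in fish 1 and 2.54 CPM in fish 2. In the 50 nm controls, scaled within that experiment, TGM8 had 49.3 and 22.6 CPM and FOXN1 6.18 and 6.98 CPM. WNT5A had 35.2 and 43.8 CPM there and SYBU 3.46 and 4.71 CPM. Fish 2 was above both of these for FOXN1, below both for SYBU and between them for TGM8 and WNT5A. The direction of fish 2 in TGM8, FOXN1 and SYBU is thus relative to the 10 nm controls.

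Of the 10 transcripts for the cell cycle, mitosis and chromosome handling, 0 were at least 2-fold away in both fish, 6 were lower and 1 was higher in fish 1 alone, and 3 stayed within 2-fold. Their median log2 fold change was -0.10. Fish 2 did not share the lower values: both fish lay below both controls for 0 of the 10. They lay above both controls for 2, and over all transcripts tested the shares were 29.5% below and 28.9% above. Of the 4 transcripts for DNA damage and repair, APEX2 was higher in both fish, 2 were higher and 1 was lower in fish 1 alone, with a median log2 fold change of 1.2. In the insulin, MAPK and metabolic list, with 6 tested, LPIN1 was higher in both fish, 2 were higher and 1 was lower in fish 1 alone, and the median was 0.83. None of these (0) passed the test. Over all transcripts tested, 11.2% were higher and 13.4% lower in fish 1 alone, 1.26% higher and 1.72% lower in both fish, and 70.4% stayed within 2-fold in both.

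The transcripts seen in fish 1 alone could be followed across the other groups of the 10 nm experiment. In IRS2, fish 1 of 520–530 nm had 92.8 CPM and fish 2 had 8.21 CPM, while the 6 fish of the other wavebands ranged from 16.2 to 46.3 CPM. In TGM8 the 520–530 nm fish had 141 and 20.2 CPM and the 6 others 25.8 to 88.4 CPM. In MAP2K1 they had 4.59 and 21.9 CPM and the 6 others 7.81 to 13.9 CPM. Fish 1 of 520–530 nm thus stood on the same side as fish 1 of 510–520 nm in these 3 genes. In MAP2K1 all 10 exposed fish were below both 10 nm controls, but the wavebands share these libraries, so this is no repeated finding. In the 50 nm controls, scaled within that experiment, MAP2K1 stood at 6.71 and 10.1 CPM. These values are above fish 1 of 510–520 nm and of 520–530 nm but below fish 2 of both.

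**Figure D3:**
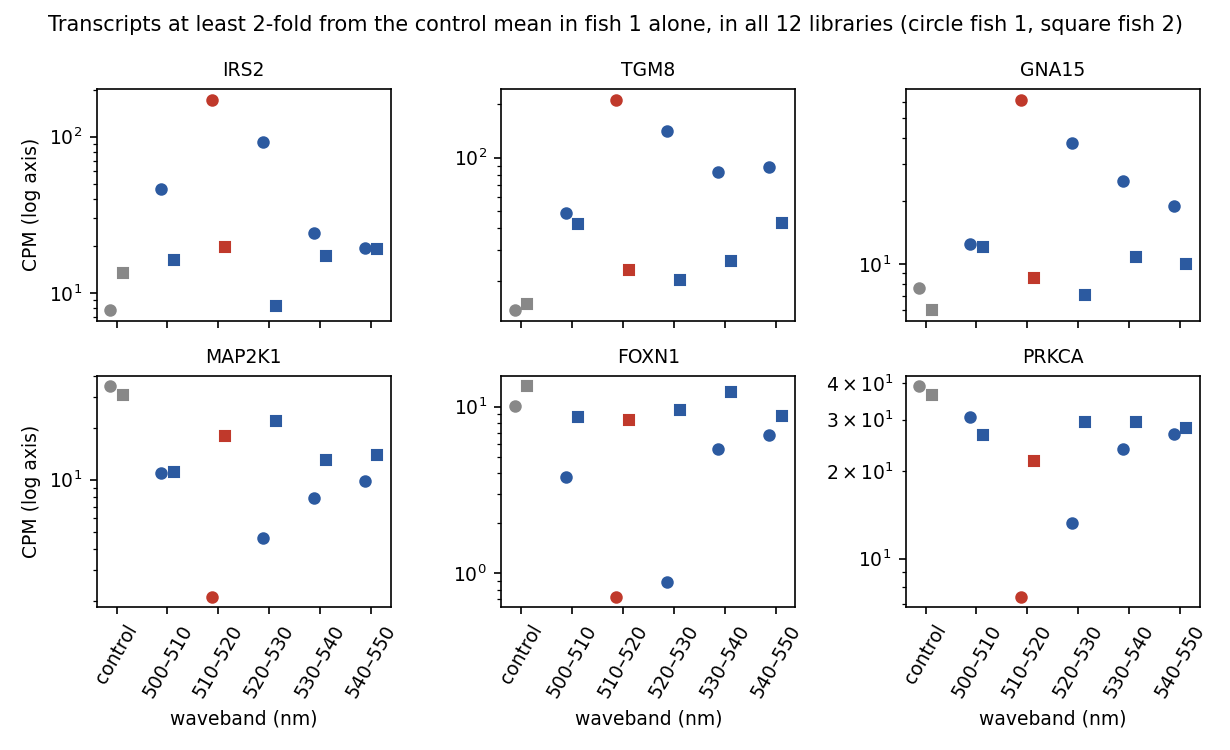
CPM on log axes of 6 transcripts at least 2-fold from the control mean in fish 1 of 510–520 nm alone, in the 12 libraries of the 10 nm experiment (circle fish 1, square fish 2, grey controls, red 510–520 nm, blue other wavebands). Fish 1 of 510–520 nm is the highest library for IRS2 (173 CPM), TGM8 (213 CPM) and GNA15 (61.5 CPM) and the lowest for MAP2K1 (2.11 CPM), FOXN1 (0.726 CPM) and PRKCA (7.41 CPM), and fish 1 of 520–530 nm comes next in each. The 6 were picked from those named. For WNT5A and PLCH2, not drawn, fish 1 of 520–530 nm (23.0 and 13.2 CPM) does not come next.

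Over all transcripts of these classes, a minority were at least 2-fold apart in the same order of fish at 520–530 nm. Of the 1838 transcripts higher in fish 1 alone, fish 1 of 520–530 nm was at least 2-fold above its own fish 2 for 595 (32.4%) and at least 2-fold below it for 20, while over all transcripts the share above was 6.57%. Of the 2185 lower in fish 1 alone, fish 1 of 520–530 nm was at least 2-fold below its fish 2 for 560 (25.6%), against 6.30% over all. At 500–510 nm the shares were 6.09% and 1.56%, beside 2.13% and 1.38% over all transcripts. At 530–540 nm they were 2.34% and 3.52%, beside 0.874% and 2.03%. At 540–550 nm they were 5.66% and 3.57%, beside 1.54% and 2.44%. Between the controls they were 1.41% and 0.870%, beside 0.776% and 1.34%. These differences are taken within a group and use no control for the wavebands. In the other wavebands too, more transcripts lay at least 2-fold from the control mean in fish 1 than in fish 2. The shares were 8.08% and 6.58% at 500–510 nm and 20.4% and 4.84% at 520–530 nm. They were 11.7% and 6.03% at 530–540 nm and 9.79% and 4.6% at 540–550 nm. These shares rest on the same controls. The labels do not say whether the numbers 1 and 2 mark anything that fish of different groups share. What these likenesses rest on was not tested.

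**Figure D4:**
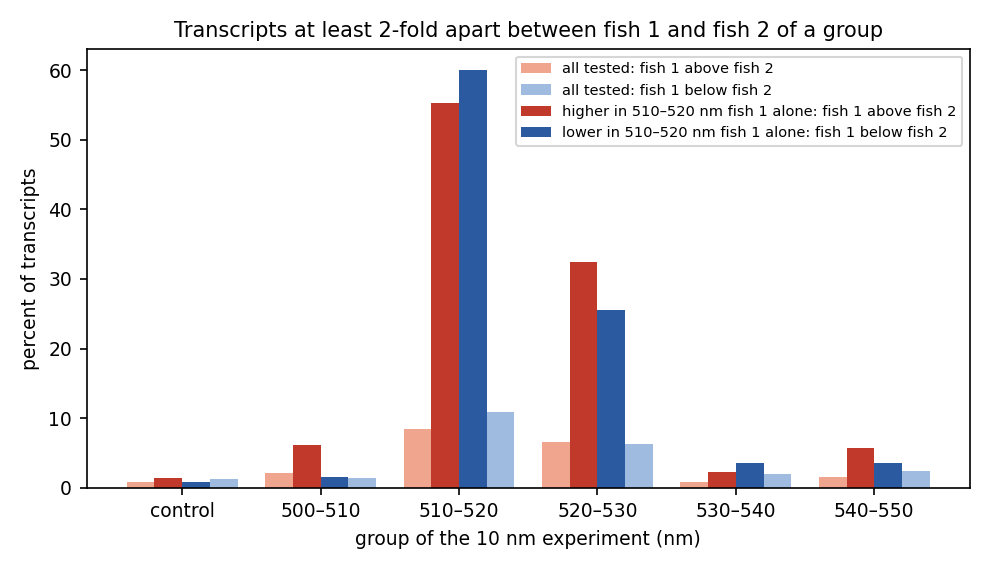
Percent of transcripts at least 2-fold apart between fish 1 and fish 2 of each group, for all transcripts tested (pale bars) and for those higher (dark red) or lower (dark blue) in fish 1 of 510–520 nm alone. The dark bars at 510–520 nm (55.3% and 60.0%) are set by the choice of these transcripts, and the next highest are those at 520–530 nm (32.4% and 25.6%).

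Fish 2 alone gave few named transcripts. CYP1A1, a cytochrome P450 induced through the aryl hydrocarbon receptor and here a named coding sequence, had 2 counts and 1 count in the controls, 0 in fish 1 and 41 in fish 2. The counts are too few in the other libraries for a fold change. Among the other exposed fish CYP1A1 ranged from 0.488 to 3.38 CPM, beside 2.97 CPM in fish 2. RAB3B, a small GTPase of vesicle traffic, had 1.17 and 1.44 CPM in the controls, 0.799 CPM in fish 1 and 0.580 CPM in fish 2. MAPK14_2of2, a p38 kinase, had 11.7 CPM in each control, 14.8 CPM in fish 1 and 5.66 CPM in fish 2. With NOS2, these make 1 higher and 3 lower of the 81, beside 0.855% and 0.91% of all transcripts.

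Clock transcripts other than CRY2 stayed within 2-fold in both fish, as did 70.4% of all transcripts tested. BHLHE40 (ENSXMAT00000002257), a repressor of clock genes, had 270 and 326 CPM in the controls and 277 and 284 CPM in the exposed fish. CRY2A (ENSXMAT00000009327), a cryptochrome, had 37.9 and 29.8 CPM in the controls, 24.5 CPM in fish 1 and 49.8 CPM in fish 2. NR1D4 (ENSXMAT00000002359), a nuclear receptor of the Rev-erb family, had 21.5 and 8.42 CPM in the controls and 7.41 and 11.0 CPM in the exposed fish. For these 3 the groups overlapped. RORA (ENSXMAT00000003254), a nuclear receptor that opposes Rev-erb at the same elements, had 5.48 and 6.52 CPM in the controls and 3.78 and 2.97 CPM in the exposed fish, without overlap. Its log2 fold change was -0.83 ± 0.25 (SE, adjusted p 0.101). Of the 10 clock genes listed, 4 have a panel transcript, and 0 passed the test.

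The panel's housekeepers were not uniformly level. Of 10, 6 stayed within 2-fold in both fish, 3 were at least 2-fold lower in fish 1 alone (LCP2A, PCP4 and SORT1) and SI_CH211-19901.2 was higher in both. Over all transcripts tested these shares were 70.4%, 13.4% and 1.26%, and 10 transcripts are too few to set the housekeepers apart. WDR37 had 8.02 and 7.73 CPM in the controls and 7.99 and 7.11 CPM in the exposed fish. TMEM204 had 34.2 and 37.1 CPM in the controls and 30.4 and 38.5 CPM in the exposed fish. SORT1, a sorting receptor, had 7.76 and 8.12 CPM in the controls and 3.34 and 4.43 CPM in the exposed fish, a log2 fold change of -1.03 ± 0.32 (SE, adjusted p 0.105). FLT4 and INTS9 stayed within 2-fold, as did FAM102BB and SI_DKEY-1C7.1.

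Set directly against the neighbouring wavebands, 510–520 nm was not separated for any transcript. Against 500–510 nm, 0 of 16366 passed (0%), with a lowest adjusted p of 0.457 and 1573 at an unadjusted p under 0.05. Against 520–530 nm, 0 passed (0%), with a lowest adjusted p of 0.724 and 872 at an unadjusted p under 0.05. The 2 fish of 520–530 nm were themselves at least 2-fold apart at 2107 transcripts (12.9%). HMOX1 had 47.0 and 11.1 CPM at 500–510 nm and 108 and 26.5 CPM at 520–530 nm, and its log2 difference was 0.86 ± 0.68 (SE) from the former and -0.35 (standard error 0.68) from the latter. HSPA4 had 52.9 and 45.2 CPM at 500–510 nm and 80.2 and 33.8 CPM at 520–530 nm, with log2 differences of 0.38 and 0.16 (standard error 0.41 for each).

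LPIN1 was higher in both 510–520 nm fish than in the 8 fish of the other wavebands. It had 29.1 and 31.1 CPM at 500–510 nm, 31.0 and 17.0 CPM at 520–530 nm, and 13.9 to 25.7 CPM in the 4 fish of 530–550 nm, all below the 47.6 and 52.7 CPM of 510–520 nm. The log2 difference was 0.74 ± 0.32 (SE, adjusted p 0.519) from 500–510 nm and 1.06 (standard error 0.33, adjusted p 0.845) from 520–530 nm. The difference did not pass the test in either case.

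The wavebands of the 10 nm experiment share their controls, so their changes are set side by side without a count of agreement. The transcripts higher in both fish of 510–520 nm had median log2 changes of 1.34 and 0.96 in the 500–510 nm fish and 1.78 and 0.86 in those of 520–530 nm. At 530–540 nm the medians were 1.11 and 0.85, and at 540–550 nm 1.04 and 0.89. The transcripts lower in both had -0.95 and -0.60 at 500–510 nm, -1.65 and -0.94 at 520–530 nm, -1.16 and -0.76 at 530–540 nm, and -1.05 and -0.84 at 540–550 nm. The medians of 2.06 and 1.25 and of -1.93 and -1.26 at 510–520 nm are set by the choice of these transcripts and are not to be ranked against the others.

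The 500–550 nm exposure of the 50 nm experiment contains this waveband and was made on other fish with other controls. In its own fit of 16722 transcripts, 333 were called higher (1.99%) and 452 lower (2.70%). Of the 207 transcripts higher in both fish of 510–520 nm, 202 were tested there. Of these, 115 (56.9%) were higher after 500–550 nm, beside 48.0% of the 16291 transcripts tested in both experiments, and 25 (12.4%) were at least 2-fold higher in both fish, beside 2.62%. Of the 282 lower ones, 275 were tested, 152 (55.3%) were lower, beside 52.0%, and 25 (9.09%) were at least 2-fold lower in both fish, beside 2.56%. The quasi-likelihood test called 13 of the 202 higher (6.44%) and 13 of the 275 lower (4.73%). Most members of both sets were thus not at least 2-fold away in both 500–550 nm fish in the direction seen at 510–520 nm. Of the transcripts higher in fish 1 alone, 1818 were tested there and 46 (2.53%) were at least 2-fold higher in both 500–550 nm fish, beside 2.62% over all. Of those lower in fish 1 alone, 2173 were tested and 104 (4.79%) were at least 2-fold lower in both, beside 2.56% over all. Of the 2173, 1262 (58.1%) were lower after 500–550 nm, beside 52.0% over all, and 96 (4.42%) were called lower, beside 2.70%. Of the 1818, 930 (51.2%) were higher, beside 48.0% over all, and 32 (1.76%) were called higher, beside 1.98%.

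**Figure D5:**
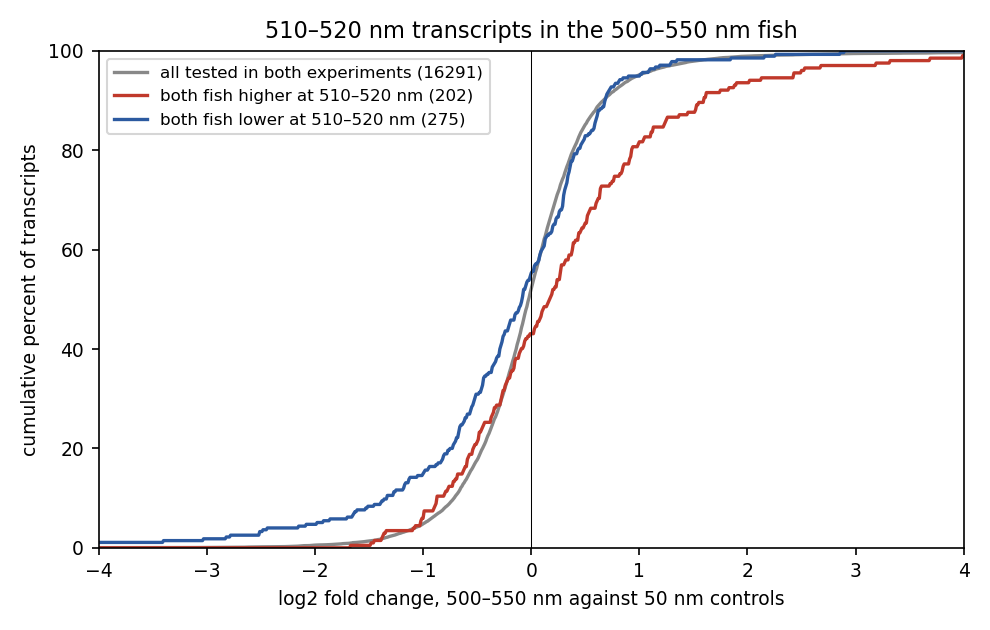
Cumulative percent of transcripts (vertical axis) by log2 fold change of 500–550 nm against the 50 nm controls (horizontal axis), for all 16291 transcripts tested in both experiments (grey), the 202 higher in both 510–520 nm fish (red) and the 275 lower in both (blue). The red curve lies to the right, with a median of 0.17 beside -0.02 for all, and the blue curve leaves the grey one mainly below 0, with a median of -0.09.

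Among the named members, SI_CH211-19901.2 had 53.6 and 32.6 CPM after 500–550 nm and 1.67 and 2.48 CPM in the 50 nm controls, a log2 fold change of 4.37 ± 0.48 (SE, adjusted p 0.00114). CREB5 had 9.06 and 6.96 CPM after 500–550 nm and 1.88 and 3.32 CPM in the controls, for a log2 fold change of 1.61 ± 0.47 (SE, adjusted p 0.0437). Both passed the test there. LPIN1 had 59.9 and 50.0 CPM against 17.9 and 18.5 CPM, with a log2 fold change of 1.59 ± 0.54 (SE, adjusted p 0.0741). HSPA4 had 71.8 and 73.3 CPM against 35.8 and 40.3 CPM, a log2 fold change of 0.93 ± 0.23 (SE, adjusted p 0.0269), under 2-fold. HMOX1 had 28.4 and 23.5 CPM against 14.4 and 12.6 CPM, a log2 fold change of 0.94 ± 0.81 (SE, adjusted p 0.462). For these 5 both exposed fish were above both controls in each experiment. DSCAML1, in contrast, had 11.3 and 8.79 CPM against 10.5 and 11.3 CPM, and APEX2 2.39 and 1.63 CPM against 1.84 and 1.89 CPM. CRY2 had 0.562 and 1.27 CPM against 0.395 and 0.756 CPM, a log2 fold change of 0.70 ± 1.10 (SE, adjusted p 0.708), opposite in sign to that at 510–520 nm. MAP2K1 had 7.86 and 9.91 CPM against 6.71 and 10.1 CPM in the 50 nm controls, which are lower than its 34.8 and 31.1 CPM in the 10 nm controls. Among the unnamed transcripts given above, ENSXMAT00000018048 had 1.26 and 3.30 CPM against 44.3 and 38.6 CPM. Its log2 fold change of -4.13 ± 1.19 (SE, adjusted p 0.0428) passed the test there. For ENSXMAT00000017917 it was -4.45 ± 1.56 (SE, adjusted p 0.0812) and for ENSXMAT00000000069 1.23 ± 0.53 (SE, adjusted p 0.144). Both had the sign seen at 510–520 nm. ENSXMAT00000015492 had 331 and 82.3 CPM against 118 and 169 CPM, with overlap.

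The choice of control bears on these sets. With the 2 controls of the 50 nm experiment in place of the 10 nm controls, 376 transcripts were higher and 477 lower in both fish, and 108 of the 489 were among them, 46 of the higher and 62 of the lower. This sets exposed fish of 1 experiment against controls of another, so the choice of control and the experiment cannot be told apart. With each exposed fish set against a different 10 nm control, so that both share no library, 501 transcripts were at least 2-fold away in the same direction in 1 pairing and 481 in the other, with 75 and 65 in opposite directions. Of the 489, 283 (99 higher and 184 lower) kept their place in both pairings. These pairings were chosen after seeing the data.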

How the data were processed

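Reads that passed trimming and filtering were mapped by the authors with GSNAP to Ensembl cDNA sequences of *Xiphophorus* and counted with a tool the methods call xEpress, and the deposited values are raw counts per transcript. Fish given a sham treatment were not analysed here, and transcripts moved by handling were not removed. Low counts were removed with filterByExpr in edgeR 4.0.16 (R 4.3.3), and the 12 libraries of the 10 nm experiment were TMM scaled and fitted together with the quasi-likelihood test. Adjusted p-values are those of Benjamini and Hochberg over all transcripts. A transcript was called at an adjusted p under 0.05 and a log2 fold change of at least 1. Standard errors are the log2 fold change over the square root of F. The 500–550 nm fish were fitted with the 50 nm experiment alone. DESeq2 1.42.0 and the other alternatives are given in the closing section. The tests were tried on simulated counts in which both exposed fish changed alike. The fish here did not, so that trial does not cover their inequality.

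Named are the transcripts at least 2-fold away in both fish, the 12 with the largest difference in 1 fish, clock genes, housekeepers, PRKCA, IRS2, ITPR3 and MAP2K1, and the 2 unnamed transcripts with the largest smaller change on each side. NOS2, HSP90AA1, HSP90AB1, GPX6, GSTM3, OXR1, PPAR, RAB3B, MAPK14_2of2 and MYL2B are named besides. The transcripts and lists were chosen with earlier results of these data known. Of the 63 panel identifiers, read from page images, all were found in the counts. The identifier of PPAR, counted in the insulin, MAPK and metabolic list, breaks the rising order of the panel, so that name is less sure. P-values measure the spread between fish given as separate samples. Figures were drawn with matplotlib 3.10.9.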

Additional observations from a re-analysis of the deposited data

How the results depend on the processing

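The count of transcripts called at 510–520 nm, 0 in the joint quasi-likelihood fit, was 222 with edgeR's exact test, 1023 with DESeq2, 1 with the 10 nm and 50 nm controls together as the reference and 1221 with the 50 nm controls in their place, the last chosen after seeing the data. It stayed 0 in a fit of the 2 groups alone, with RLE size factors and with no filter on low counts. Leaving out 1 library in turn gave between 0 and 3616, the latter without fish 2 of 510–520 nm. The labels' replicate numbers join different fish. The difference between fish 1 and fish 2 of 510–520 nm had a correlation across transcripts of -0.000291 with that of the controls. With that of 520–530 nm it was 0.619. Of the 15 pairs of groups, 8 were over 0.1, each of them between exposed groups. The pairs with the controls ran from -0.0343 to 0.0977. With the replicate number as a block, 815 transcripts were called, 399 higher and 416 lower, and 0 against each neighbouring waveband (1986 and 1014 at an unadjusted p under 0.05).

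The 489 transcripts moved in both fish became 2120 at 1.5-fold, 34 at 4-fold and 853 against the 50 nm controls. They were 566 and 389 with a prior count of 0.5 and 5, 481 with RLE size factors and 610 with no filter. Without each 10 nm control they were 641 and 570, with 398 and 374 of the 489 kept. Of 477 tested after 500–550 nm, 56.0% had the same sign there, and 59.1% of the 274 that held in both pairings of fish and control.

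Among named transcripts, the log2 fold change changed sign when single libraries were left out for CRY2A (from -0.47 to 0.56), WDR37 (from -0.14 to 0.02) and TMEM204 (from -0.24 to 0.11). The same held for BHLHE40 (from -0.22 to 0.05) and NR1D4 (from -1.22 to 0.13). That of CYP1A1 ran from -3.28 to 5.32, but its counts are too few for a fold change. With the 50 nm controls added the log2 fold change was -0.08 for INTS9 and 0.04 for TMEM204. Of the 34 transcripts named by rule, 8 passed the test with the block, beside 815 of 16366 over all. In DESeq2 9 of the 29 with an adjusted p passed, beside 1023 of 16366. In the exact test 7 of the 32 passed, beside 222 of 15943. Many of the 34 were named for their change in these same fish, which in part sets these counts. By depth, 24 of the 207 transcripts higher in both fish and 55 of the 282 lower ones had a mean under 1 CPM and rest on few counts.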
